A study of Bos taurus with 7 samples.

Results

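The smooth muscle contractile genes are 10 genes whose products build and run the contractile apparatus of smooth muscle: ACTA2, ACTG2, MYH11, DES, TAGLN, CNN1, MYLK, MYL9, LMOD1 and SYNPO2. They were found by their gene symbol among the non-control probes of the array. A probe was matched for 9 of the 10, each by 1 probe, out of 14964 gene names on the array, and ACTG2 was not analysed here. All 9 were among the 12561 genes tested. The probes were set against the feeding group of 7 Holstein calves, as a gauge of how much underlying muscle, vessel wall or myofibroblast RNA each sample of rumen lining held.

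Total RNA labelled as rumen epithelium from each calf was hybridised to 1 single-colour Agilent array. The HAY group (calves 9, 10 and 13, n = 3) was given forage, and the CON group (calves 8, 11, 12 and 14, n = 4) was not, in a study of forage and calf starter around weaning whose design names a time of 3 weeks after weaning. Each calf is a separate animal, and the labels used here give no age for either group. The labels do not say how the lining was parted from the tissue below it, so a sample can hold both.

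Smooth muscle contracts when calcium, through calmodulin, activates myosin light chain kinase, which phosphorylates the regulatory light chain and lets myosin pull on actin filaments. Calponin and transgelin sit on those filaments, leiomodin builds them, and desmin ties them into the cytoskeleton. The rumen lining itself is a stratified squamous epithelium. Connective tissue, blood vessels with muscle in their walls and the muscle coats that mix the rumen contents lie below it, and myofibroblasts and pericytes use part of the same gene set.

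Most of these genes had lower values in HAY than in CON, and none of the differences passed adjustment over all genes. All 9 had a lower mean in HAY, as did 45.5% of all genes tested, and 7 were at least 2-fold lower, as were 5.26% of all genes. In 6 of the 9 the limma unadjusted p was under 0.05 with HAY lower, against 7.17% of all genes (901 of 12561). The median log2 difference was -1.33 over the 9 members and 0.03 over all genes tested. Calf 8 was the highest of the 7 in 9 of 9 members, where it was highest for 17.3% of all genes.

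Each probe is an oligonucleotide of 60 bases whose sequence is in the deposited files. The 6 shown here carry the contrast described below, 4 from genes that differed more between calves (MYH11, DES, TAGLN, CNN1) and 2 from the genes that differed least (MYL9, LMOD1). They are written 5′ to 3′ in lower case throughout, since no base within them was singled out.
MYH11: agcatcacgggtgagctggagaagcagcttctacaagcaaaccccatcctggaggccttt
DES: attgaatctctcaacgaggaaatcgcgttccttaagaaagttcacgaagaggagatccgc
TAGLN: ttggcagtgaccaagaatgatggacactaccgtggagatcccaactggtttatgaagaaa
CNN1: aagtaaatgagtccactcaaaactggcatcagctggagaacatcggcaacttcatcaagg
MYL9: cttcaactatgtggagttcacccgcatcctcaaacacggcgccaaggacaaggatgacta
LMOD1: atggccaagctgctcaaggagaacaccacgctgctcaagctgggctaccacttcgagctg

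The positions below are those the array files give on UMD_3.1. The probes of MYH11 (chr25:14280649-14284482, minus strand), DES (chr2:108077315-108077493, plus strand), TAGLN (chr15:28322682-28323084, plus strand) and CNN1 (chr7:17112174-17112373, plus strand) span 3834, 179, 403 and 200 genomic bases. A 60-base probe that spans more than 60 genomic bases lies in exons on both sides of an intron. The probes of MYL9 (chr13:66313549-66313608, plus strand) and LMOD1 (chr16:49626183-49626242, minus strand) each span 60 genomic bases. So do those of ACTA2 (chr26:10662446-10662505, minus strand), MYLK (chr1:68580158-68580217, minus strand) and SYNPO2 (chr6:7389060-7389119, minus strand). Which exon or UTR each lies in was not analysed here. The RefSeq table of ARS-UCD2.0 named each of the 9 probe accessions as the same gene. The same table also lists MYL9 as an older name of MYL12A, a close relative, and whether the MYL9 probe also binds that transcript was not tested.

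In what follows a log2 value is the probe's signal relative to the 75th percentile of its own array, so a value of 0 equals that percentile. Values of different probes are not on 1 scale and are not compared with each other. An array call of "well above background" is that of the scanner software.

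Of the filament proteins, ACTA2 encodes the alpha actin of vascular smooth muscle and myofibroblasts. Its log2 values were 2.91, 2.05 and 1.86 in calves 9, 10 and 13 of the HAY group, and 3.92, 3.67, 3.24 and 3.58 in calves 8, 11, 12 and 14 of the CON group. All 3 HAY calves lay below all 4 CON calves. The HAY mean was 2.27 ± 0.56 (SD, n = 3) and the CON mean 3.60 ± 0.28 (SD, n = 4), 2.51-fold below CON (difference -1.33 on the log2 scale, SE 0.28, limma adjusted p = 0.21). ACTA2 had the smallest p of the members and ranked 102 of 12561 genes.

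MYH11, the heavy chain of smooth muscle myosin, is among the most specific markers of the differentiated muscle cell. Its log2 values were -5.95, -6.49 and -6.76 in calves 9, 10 and 13 of the HAY group, and -3.60, -5.37, -5.51 and -6.09 in calves 8, 11, 12 and 14 of the CON group. CON calf 8 stood well above the other 6, and CON calf 14 lay below HAY calf 9. The log2 difference was -1.26 (SE 0.55, limma adjusted p = 0.365), with a 95% confidence interval from -2.55 to 0.03. It was -0.74 without CON calf 8 and -0.63 with normexp, another background correction whose offset of 50 shrinks differences of dim probes.

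DES encodes desmin, the intermediate filament of muscle cells. Its log2 values were -5.34, -6.19 and -8.02 in calves 9, 10 and 13 of the HAY group, and -1.40, -3.24, -4.34 and -4.09 in calves 8, 11, 12 and 14 of the CON group. The groups did not overlap, and calf 13 was the only 1 of the 7 calves in which the DES probe was not well above background. The HAY mean was -6.52 ± 1.37 (SD, n = 3) and the CON mean -3.27 ± 1.33 (SD, n = 4), 9.5-fold below CON (difference -3.25 on the log2 scale, SE 0.84, limma adjusted p = 0.231). The fold was 5.64 without HAY calf 13 (log2 difference -2.50), 6.18 without CON calf 8 (-2.63) and 14.3 without HAY calf 9 (-3.84). With normexp the difference over all calves was -1.57, so the size of the DES difference depended on these choices.

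TAGLN and CNN1 encode transgelin and calponin 1, proteins bound to the actin filaments of smooth muscle. The log2 values of TAGLN were -2.79, -3.86 and -3.92 in calves 9, 10 and 13 of the HAY group, and -1.15, -2.09, -2.62 and -2.54 in calves 8, 11, 12 and 14 of the CON group. The groups did not overlap, although calf 9 lay close to calves 12 and 14. TAGLN was 2.68-fold below CON (difference -1.42 on the log2 scale, SE 0.43, limma adjusted p = 0.261).

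CNN1 had log2 values of -5.48, -6.75 and -6.57 in calves 9, 10 and 13 of the HAY group, and -2.55, -4.43, -5.67 and -5.12 in calves 8, 11, 12 and 14 of the CON group. The groups overlapped, because CON calf 12 lay below HAY calf 9. The log2 difference was -1.82 (SE 0.72, limma adjusted p = 0.329), or -1.19 without CON calf 8 and -0.93 with normexp.

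SYNPO2, synaptopodin 2, binds actin and alpha-actinin in muscle cells. Its log2 values were -5.29, -7.03 and -6.79 in calves 9, 10 and 13 of the HAY group, and -4.17, -5.07, -5.21 and -5.69 in calves 8, 11, 12 and 14 of the CON group. HAY calf 9 lay above CON calf 14, and the other two HAY calves lay below every CON calf. The log2 difference was -1.34 (SE 0.49, limma adjusted p = 0.311) and -0.59 with normexp.

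The regulators of myosin did not behave alike. MYLK, the kinase that switches smooth muscle myosin on, had log2 values of 4.25, 3.18 and 2.97 in calves 9, 10 and 13 of the HAY group, and 5.57, 4.70, 4.44 and 4.00 in calves 8, 11, 12 and 14 of the CON group. Only HAY calf 9 and CON calf 14 overlapped, and the log2 difference was -1.21 (SE 0.43, limma adjusted p = 0.30).

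MYL9 encodes the regulatory light chain that MYLK phosphorylates, and it is also used by non-muscle cells. Its log2 values were -1.99, -2.50 and -2.34 in calves 9, 10 and 13 of the HAY group, and -1.41, -2.11, -2.01 and -2.64 in calves 8, 11, 12 and 14 of the CON group. CON calf 14 was the lowest of all 7 and CON calf 8 the highest. The log2 difference was -0.23 (SE 0.29, limma adjusted p = 0.764), with a 95% confidence interval from -0.90 to 0.44. Leaving out CON calf 8 gave -0.02 and leaving out HAY calf 10 gave -0.12. Omitting HAY calf 9 gave -0.38 and omitting CON calf 14 gave -0.43.

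LMOD1, leiomodin 1, starts actin filaments in smooth muscle. Its log2 values were -5.78, -6.39 and -5.93 in calves 9, 10 and 13 of the HAY group, and -5.56, -6.00, -6.30 and -5.98 in calves 8, 11, 12 and 14 of the CON group, with the groups interleaved. The log2 difference was -0.08 (SE 0.22, limma adjusted p = 0.91), with an interval from -0.60 to 0.45. The sign turned without CON calf 8 (0.06) and without HAY calf 10 (0.10), so no direction can be given.

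**Figure D1:**
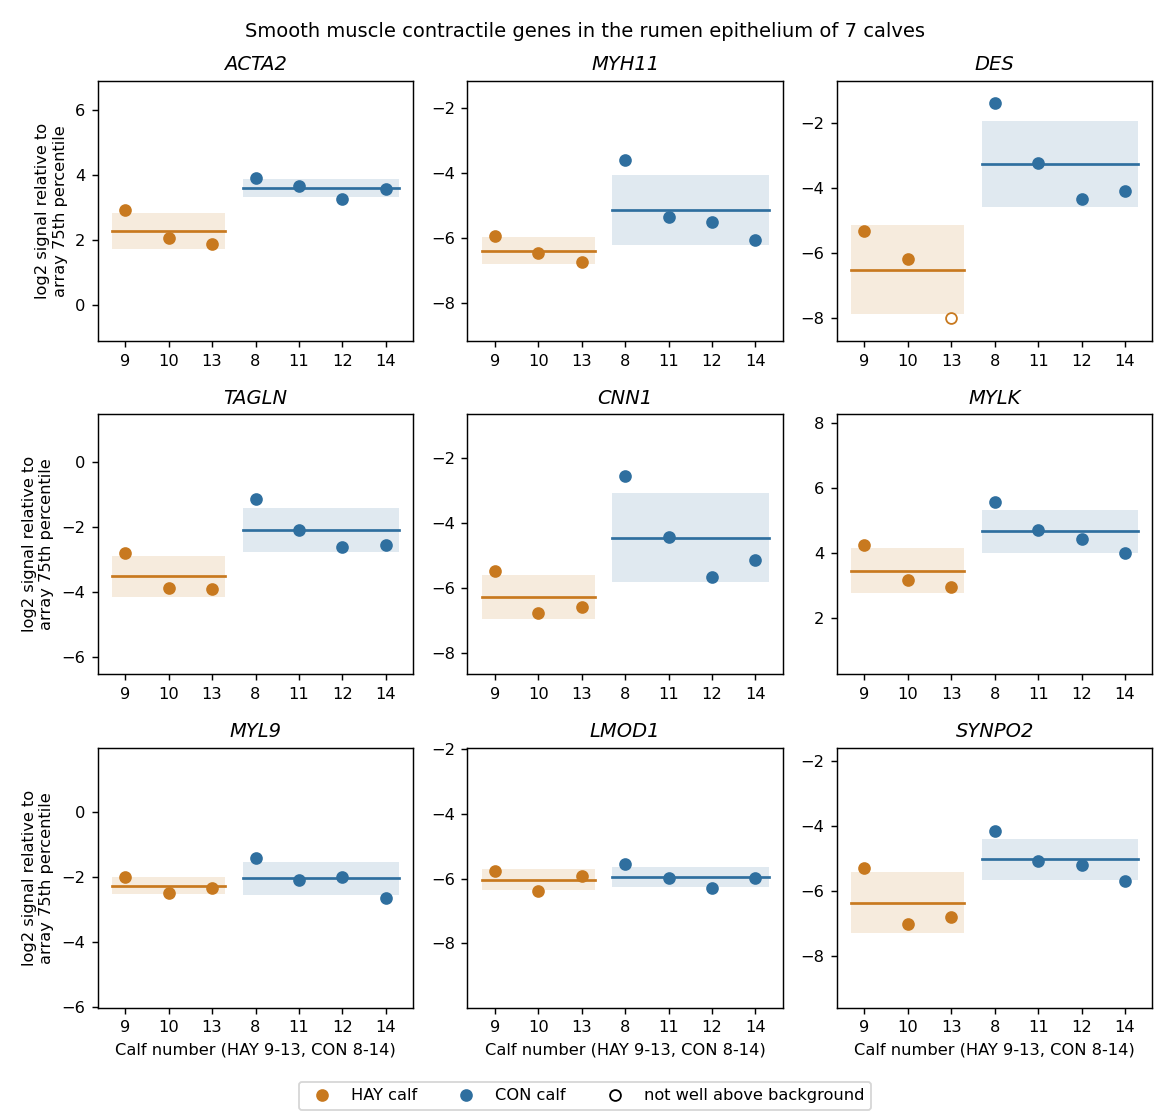
The log2 signal of each gene, relative to the 75th percentile of the array, is plotted for each calf, with the 3 HAY calves on the left and the 4 CON calves on the right of each panel. Lines are group means, shaded bands are 1 SD, the open circle is a spot not well above background, and every panel spans 8 log2 units, so MYL9 and LMOD1 can be seen to vary less between calves than DES or CNN1.

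The calves differed from each other far more in some members than in others. The spread from the lowest to the highest calf was 6.62 log2 units for DES, 4.20 for CNN1, 3.17 for MYH11, 2.86 for SYNPO2, 2.77 for TAGLN, 2.60 for MYLK and 2.06 for ACTA2. It was 1.23 for MYL9 and 0.84 for LMOD1. The scanner software's own error was 10% of the signal for ACTA2 and MYLK on each array, and 11.1 to 14.5% for LMOD1. It reached 15% for MYH11, 16.3% for CNN1, 18.9% for SYNPO2 and 30.0% for DES, each in a HAY calf. These probes and LMOD1 lay closest to the background. Each array's dimmest signal called well above background was taken as its floor. In the calf closest to it, MYH11, LMOD1, CNN1 and SYNPO2 were 0.98, 0.96, 0.79 and 0.51 log2 units above that floor. LMOD1 was at most 2.12 units above it in any calf. ACTA2 was at least 9.59 units above it in every calf, and the ACTA2 difference was nearly the same with normexp (-1.31).

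**Figure D2:**
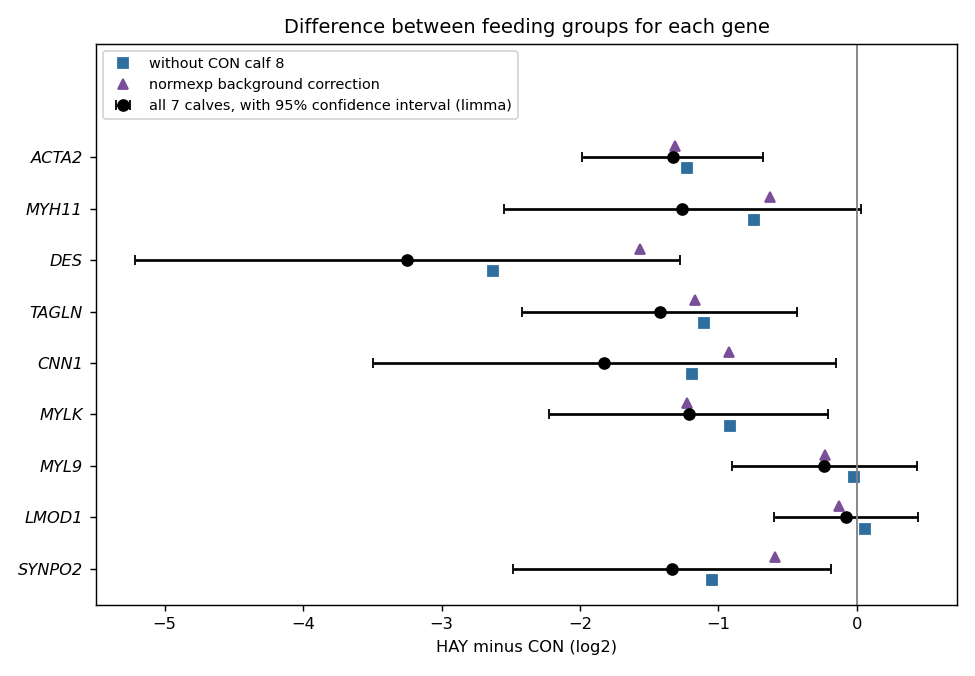
The HAY minus CON difference of each gene on the log2 scale is drawn as a black circle with its 95% confidence interval from limma, over all 7 calves. Squares leave out CON calf 8 and triangles use the normexp background correction; ACTA2 and MYLK keep their difference with normexp, while those of MYH11, DES, CNN1 and SYNPO2 move toward 0.

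The groups did not overlap, with HAY lower, in 3 of the 9 members (ACTA2, DES and TAGLN), against 5.30% of all genes tested. Without HAY calf 9 they did not overlap in 7 of the 9, against 13.4% of all genes compared in the same way. With either HAY calf 10 or HAY calf 13 left out, 3 members were lower in HAY at an unadjusted limma p under 0.05. The share over all genes was 4.85% and 3.95%. The count lay between 4 (without CON calf 11) and 7 (without CON calf 14) when any other calf was left out. In those fits 1609 and 2075 of 12561 genes reached that p, 43.8% and 57.1% of them lower in HAY. None of the 9 passed limma's adjusted threshold of 0.05 over all genes, which 1 gene in 12561 (0.00796%) did. With array quality weights, where HAY calf 10 was given a weight of 2.94 and CON calf 14 one of 0.46, ACTA2 had an adjusted p of 0.0444 and was among the 155 genes (1.23%) that passed in that fit. Its adjusted p was between 0.0444 and 0.556 over 17 alternatives.

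The order of the calves was alike in most members, and least so in MYL9 and LMOD1. The mean deviation of the 9 members from their own 7-calf means was -0.07, -1.02 and -1.19 log2 units in calves 9, 10 and 13 of the HAY group, and 1.61, 0.54, 0.09 and 0.03 in calves 8, 11, 12 and 14 of the CON group. Calf 9 thus lay close to CON calves 12 and 14, and the group gap rested on calves 10 and 13 on the low side and calves 8 and 11 on the high side. The HAY mean was -0.76 ± 0.60 (SD, n = 3) and the CON mean 0.57 ± 0.73 (SD, n = 4). Calf 9 was the highest HAY calf in 9 of 9 members, where it was highest of the 3 for 32.7% of all genes. Calf 13 was the lowest of the 7 in 5 members, all with calf 8 highest, an order of extremes seen in 8.95% of all genes. Calf 10 was lowest in 3 members and calf 14 in 1. In bulk samples like these, fewer smooth muscle cells and less of these transcripts per cell cannot be told apart.

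The members varied together over the 7 calves. Pearson r was above 0 in all 36 member pairs, with a median of 0.89 and a range from 0.43 (DES and LMOD1) to 0.98 (MYLK and SYNPO2). Spearman rho had a median of 0.86 and a range from 0.29 to 1. By exact permutation over calves, two-sided, 24 of the 36 pairs had an adjusted p under 0.05 for r and 19 for rho, adjusted over the 36 pairs. Calves were permuted across the feeding groups, so a group difference shared by a pair counts toward these p values. The share of all gene pairs passing that threshold was not analysed. The median r over all 78883080 pairs of genes tested was 0.0127, and 1.2% of those pairs reached the members' median. The genes were chosen as smooth muscle genes, and other cells use some of them. These figures describe how far they varied together on these 7 arrays. Whether their signal came from 1 cell type was not tested.

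The shared pattern was also seen inside the feeding groups. With the group means removed, r was above 0 in all 36 pairs, with a median of 0.84 and a range from 0.52 to 0.97. Of all gene pairs, 3.8% reached that median. The 2 calves farthest from the middle of the member mean were CON calf 8 and HAY calf 13. Without both, the median r was 0.80 over the 5 calves left and the lowest 0.17, and r stayed above 0 in all 36 pairs. The group means were not removed in this form, and 6.96% of all gene pairs reached its median. TAGLN followed the mean of the other members most closely (r = 0.995 over 7 calves), and LMOD1 least closely (r = 0.58), ahead of which came MYL9 (r = 0.75). With the group means removed, r was 0.84 for MYL9, above ACTA2 (0.81), and 0.74 for LMOD1. The 21 pairs among the 7 members other than MYL9 and LMOD1 had a median r of 0.94 over the 7 calves. It was 0.62 for the 15 pairs with MYL9 or LMOD1. With the group means removed these medians were 0.87 and 0.74. The split was made after these values were seen and was therefore not tested.

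**Figure D3:**
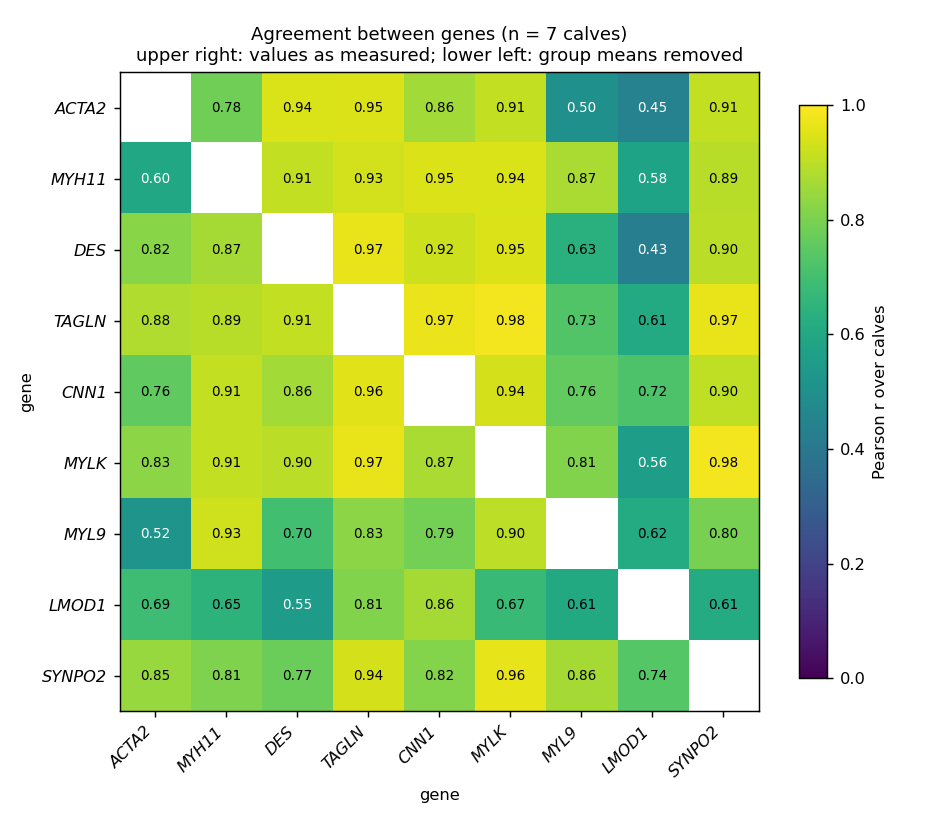
Pearson r between each pair of genes over 7 calves is shown by colour and number, with values as measured in the upper right and with the group means removed in the lower left. The rows and columns of MYL9 and LMOD1 hold the lowest values of the upper right, down to 0.43, and no pair is below 0 in either triangle.

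All 7 arrays lay on 1 slide, the HAY arrays in its row 1 and those of CON in row 2, so the row and the feeding group cannot be told apart. The slide column could be compared within, since 3 columns held 1 array of each group. In column 2 (calves 9 and 11) 7 of 9 members were lower in the HAY calf, with a median difference of -0.58. In column 3 (calves 10 and 12) it was 9 of 9 with a median of -1.19, and in column 4 (calves 13 and 14) 7 of 9 with a median of -1.11. Each column sets 1 calf against 1 calf. The share over all genes was not analysed for these pairs of arrays, so these counts have no background beside them. The members that were higher in the HAY calf were MYL9 and LMOD1, in columns 2 and 4. With slide column as a block, which takes CON calf 8 out of the comparison because it was alone in its column, 7 members were lower in HAY at an unadjusted limma p under 0.05, against 9.11% of all genes in that fit, and LMOD1 was 0.06 higher.

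Other genes of the contractile apparatus were read from lists chosen with earlier results of these data known. Of 19 partners of the contractile filaments with a probe, 3 were not well above background on any array (PPP1R14A, LMOD2 and LMOD3). Of the 15 tested, 13 were lower in HAY, with a median difference of -0.19 on the log2 scale. An unadjusted limma p under 0.05 was found for 3, all lower. NEXN, nexilin, which binds actin filaments, had log2 values of -1.41, -1.70 and -2.16 in calves 9, 10 and 13 of the HAY group, and -0.15, -0.47, -1.13 and -1.03 in calves 8, 11, 12 and 14 of the CON group. The groups did not overlap (log2 difference -1.06, SE 0.29, limma adjusted p = 0.247). CALD1, caldesmon, an actin-bound brake on myosin, had a difference of -1.07 (SE 0.41, limma adjusted p = 0.324) and SMTN, smoothelin, of -0.55 (SE 0.22, limma adjusted p = 0.337). TPM1, a tropomyosin, and MYL6, the essential light chain, had differences of -0.01 (SE 0.14) and -0.02 (SE 0.21). The 2 higher in HAY were HSPB6, by 0.20 (SE 0.17), and PDLIM7, by 0.04 (SE 0.37). With median centring of the arrays 10 of the 15 were lower.

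Of 18 tested genes of calcium handling, channels and contraction signalling, 13 were lower in HAY with a median of -0.76, and 4 had an unadjusted limma p under 0.05, all lower. With normexp the median was -0.32. PRKG1, the cGMP-dependent kinase that relaxes smooth muscle, had log2 values of -0.98, -2.33 and -4.28 in calves 9, 10 and 13 of the HAY group, and -0.05, -0.98, -0.99 and 0.70 in calves 8, 11, 12 and 14 of the CON group. The difference was -2.20 (SE 0.77, limma adjusted p = 0.296), and HAY calf 13 was lowest by a wide margin. IRAG1, a substrate of that kinase at the calcium store, had a difference of -0.99 (SE 0.32, limma adjusted p = 0.276), or -0.56 with normexp, and the endothelin receptor gene EDNRA of -0.60 (SE 0.23, limma adjusted p = 0.322). The 5 higher in HAY were RHOA, ROCK1, ROCK2, CHRM2 and CHRM3. Their differences were 0.03 (SE 0.24), 0.17 (SE 0.15), 0.06 (SE 0.22), 0.03 (SE 0.17) and 0.17 (SE 0.15).

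Of 19 tested genes that anchor filaments to the membrane and matrix, 16 were lower in HAY with a median of -0.43, and 6 had an unadjusted limma p under 0.05, all lower. FLNA, filamin A, had a difference of -0.75 (SE 0.25, limma adjusted p = 0.281) and SGCD, delta-sarcoglycan, of -0.90 (SE 0.29, limma adjusted p = 0.273), neither with overlap between groups. ITGB1, the beta 1 integrin, had one of -0.76 (SE 0.26, limma adjusted p = 0.296). With normexp SGCD had a difference of -0.54.

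The 10 tested transcription factors of smooth muscle and gut mesenchyme went both ways, with 6 lower, 4 higher and a median of -0.12. SRF, which switches on most contractile genes, had a difference of -0.11 (SE 0.20) and its cofactor gene MRTFB of -0.13 (SE 0.22). MEF2C had a difference of -0.87 (SE 0.40, limma adjusted p = 0.384) and KLF4, which represses contractile genes in muscle cells and is also made by squamous epithelium, of 0.32 (SE 0.15, limma adjusted p = 0.394). NKX3-2, a homeobox gene of foregut mesenchyme, was higher in all 3 HAY calves than in all 4 CON calves (log2 difference 0.82, SE 0.23, limma adjusted p = 0.254).

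The counts of list genes lower in HAY depended on single calves. When each calf was left out in turn, the count at an unadjusted limma p under 0.05 was between 1 and 5 for the contractile partners, 1 and 9 for calcium and signalling, and 1 and 8 for the anchoring genes. Without CON calf 8 these counts were 1, 2 and 3. Without HAY calf 10 they were 1, 3 and 1, and without HAY calf 13 they were 2, 1 and 2. Over all genes, 7.17% were lower at that p with all calves, 4.85% without HAY calf 10 and 3.95% without HAY calf 13. Without CON calf 8, 1205 of 12561 genes reached that p, 56.6% of them lower in HAY. Leaving out 1 calf gave 984 to 2342 such genes in either direction. A count of 1 in lists of this size is close to those shares. The median difference moved to -0.31 for the contractile partners without HAY calf 9, to -0.44 for calcium and signalling without HAY calf 13 and to -0.71 for the anchoring genes without CON calf 14. For the transcription factors it was -0.01 without HAY calf 13.

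Markers of fibroblasts and of endothelium moved with the members (list mean against member mean over 7 calves, r = 0.94 and 0.88). Those of nerve and glia did not (r = -0.18, or 0.62 with the group means removed), and are given under other observations. Of 18 fibroblast and myofibroblast genes, 17 were lower in HAY (median -1.32) and 8 had an unadjusted limma p under 0.05, all lower, or between 3 and 14 when each calf was left out. Over all genes, 7.17% were lower at that p with every calf kept. That share became 4.85% once HAY calf 10 was dropped and 3.95% once HAY calf 13 was dropped. Dropping HAY calf 10 or HAY calf 13 took the fibroblast count to 3 of 18, and dropping CON calf 8 took it to 4. Leaving out HAY calf 9 gave a median of -2.02, and leaving out HAY calf 13 one of -0.71. All 18 were tested, so none was at background on every array. Their mean deviation was 0.31, -0.85 and -1.56 in calves 9, 10 and 13 of the HAY group, and 1.23, 0.47, 0.44 and -0.03 in calves 8, 11, 12 and 14 of the CON group. FAP, a protease of activated fibroblasts, had a difference of -0.99 (SE 0.24, limma adjusted p = 0.216), POSTN, a matrix protein, of -1.78 (SE 0.54), and CTHRC1, a secreted protein of activated fibroblasts, of -2.35 (SE 0.63), or -1.18 with normexp.

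All 10 endothelial genes were lower in HAY (median -0.76), and 3 had an unadjusted limma p under 0.05, or between 1 and 9 when each calf was left out. This count was down to 1 of 10, close to the all-gene shares given above, when CON calf 8, HAY calf 10 or HAY calf 13 was dropped. For these 10 genes, omitting HAY calf 9 gave a median of -1.15, and omitting HAY calf 13 one of -0.41. Their mean deviation ran from -1.27 to 0.26 in HAY and from -0.07 to 0.76 in CON. ENG, a receptor of vessel lining cells, had a difference of -0.73 (SE 0.21), PECAM1, the platelet endothelial adhesion molecule, of -1.05 (SE 0.39) and TIE1, a receptor kinase, of -0.72 (SE 0.29). Of 8 genes of pericytes and vessel wall, 5 were lower and 3 higher (median -0.18). Their list mean had r = 0.83 with the member mean, or 0.66 with the group means removed. HIGD1B, a pericyte gene, had a difference of -1.18 (SE 0.48). The 3 higher were CSPG4, MCAM and NDUFA4L2, with differences of 0.34 (SE 0.18), 0.40 (SE 0.21) and 0.36 (SE 0.73). The part of these cells in the differences of the contractile genes was not tested.

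The mean of the striated muscle genes ran opposite to the member mean (r = -0.86 over 7 calves, or -0.69 with the group means removed). Of 17 with a probe, 6 were not well above background on any array, MYH1, MYH2, MYH7, TNNT3, TNNC1 and MYL2, which include the myosin heavy chains of skeletal muscle. Of the 11 tested, 2 were lower and 9 higher in HAY (median 0.29, 0.19 without CON calf 8, and -0.00 with normexp). MB, myoglobin, had a difference of 0.53 (SE 0.16, limma adjusted p = 0.27), or 0.29 with normexp, and MYL11, a fast muscle light chain gene listed as MYLPF, of 0.76 (SE 0.29). TNNT1, slow troponin T, had a difference of 0.28 (SE 0.12), and -0.00 with normexp.

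Basal keratins lay far above the array's 75th percentile in every calf. KRT14 and KRT15, keratins of its basal layer, had mean log2 values of 6.03 and 6.54 in HAY and 5.45 and 6.78 in CON. Of 10 basal epithelium genes 5 were lower and 5 higher (median -0.01, with a range from -0.14 without HAY calf 10 to 0.20 without HAY calf 13), and their mean deviation ran from -0.41 to 0.22 in HAY and from -0.10 to 0.08 in CON. COL17A1, a collagen that anchors basal cells, had a difference of -0.52 (SE 0.37).

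**Figure D4:**
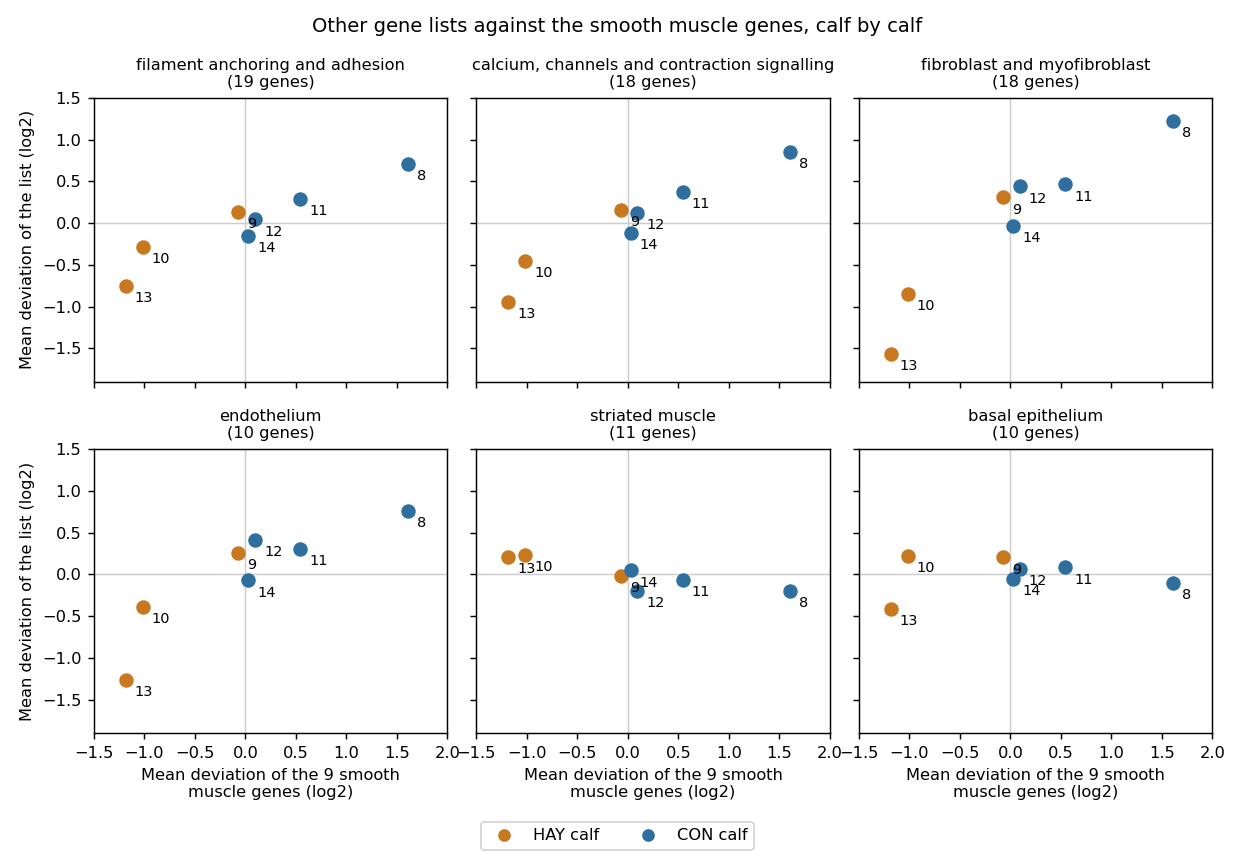
Each point is a calf, with the mean deviation of the 9 smooth muscle genes from their 7-calf means on the horizontal axis and that of another list on the vertical axis, both in log2 units. The fibroblast list runs from -1.56 in calf 13 to 1.23 in calf 8 with calves 9 and 14 the only 2 that stand in another order than for the smooth muscle genes, while the basal epithelium list stays between -0.41 and 0.22.

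Among all genes tested, 3.6% had a Pearson r of at least 0.9 with the mean deviation of the members over the 7 calves. Apart from the members, the 6 named genes most like that mean were FERMT2 (r = 0.996), GPC4 (r = 0.992), SNRPD3 (r = 0.990), HOXB8 (r = 0.990), GPX8 (r = 0.987) and ABAT (r = 0.987). FERMT2 encodes kindlin-2, an activator of integrins, GPC4 a heparan sulfate proteoglycan of the cell surface, SNRPD3 a core protein of the spliceosome, HOXB8 a homeobox transcription factor and ABAT an enzyme that breaks down GABA. FERMT2 had log2 values of 1.1, 0.61 and 0.56 in calves 9, 10 and 13 of the HAY group, and 1.92, 1.31, 1.24 and 1.14 in calves 8, 11, 12 and 14 of the CON group. Its calves stood in the same order as in the member mean, with the 3 HAY calves below all 4 CON calves. The 3 genes most opposite were PIRT (r = -0.991), a regulator of ion channels in sensory neurons, CPT1B (r = -0.985), which brings fatty acids into mitochondria, and TRPT1 (r = -0.984), a tRNA phosphotransferase. These likenesses come from a search of 12561 genes over 7 calves, were not tested, and say nothing of shared function or control.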

How the data were processed

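The authors deposited 1 scanner output per calf, with spot intensity on a linear scale after background subtraction and detrending by Agilent Feature Extraction 9.5, per the submitters' processing notes and the file headers. RNA was labelled with Cy3 from 500 ng of total RNA, per the labels' protocols. The authors also deposited a table of log2 values; on each array it differed from the log2 signals used here by a constant (SD of the difference at most 0.000352), so it holds the same signals relative to about the 75th percentile. Its column medians were -3.20 to -3.08. Controls and spots flagged as outliers were left out, replicate spots were averaged as log2 values, and each array's 75th percentile was then subtracted. Median signals were 182 to 241 intensity units, 81.5 to 84.6% of spots were well above background and 10 to 20 were saturated. The number of arrays limits the precision.

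A probe was kept where at least 3 of 7 arrays had it well above background, 1 per gene name (highest mean), and a gene with no usable spot on an array was not fitted. RefSeq accessions named 11194 of 15008 probes; the others kept the file's name. HAY and CON were compared with limma 3.58.1 in R 4.3.3 with Benjamini-Hochberg adjustment over all genes, and the script was tested on simulated data. Alternatives were normexp, median centring, quantile normalization, other filters, averaged probes, slide column as a block, the deposited table, an intensity trend, array weights and leaving out each calf; for list counts and medians, normexp and leaving out each calf were added after seeing the data. Members and lists were chosen with earlier results of these data known. Named genes were the members, up to 3 genes of smallest p per list, and the genes most and least like the member mean (6 and 3). Others were named after their values were seen (TPM1, MYL6, HSPB6, PDLIM7, RHOA, ROCK1, ROCK2, CHRM2, CHRM3, NDUFA4L2, SRF and MRTFB). VIM is in 2 lists. Because ACTG2 was not analysed, member pairs numbered 36, fewer than planned.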

Additional observations from a re-analysis of the deposited data

How the results depend on the processing

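Each of ACTA2, MYH11, DES, TAGLN, CNN1, MYLK and SYNPO2 kept a lower mean in HAY under every alternative in which it was fitted. There were 17 alternatives each, and 16 for DES, which the filter for all 7 arrays removed. With 1 probe per member, the other filters, averaged probes and the intensity trend could not change a member's difference. The deposited table held the same signals up to a constant per array. Slide column as a block gave the same differences as leaving out CON calf 8. These alternatives are therefore no separate checks on the sign. MYL9 also kept a lower mean in HAY. Its difference was only -0.02 with slide column as a block (SE 0.20) and without CON calf 8 (SE 0.23), so no direction can be given. The log2 difference of LMOD1 turned to 0.0575 with slide column as a block, and leaving out 1 calf gave it -0.20 to 0.10. The members' median difference lay between -1.65 and -0.93, and their median r between 0.87 and 0.92. Leaving out 1 calf gave 3 to 7 members lower at an unadjusted p under 0.05, with the all-gene shares given above. It gave 1 to 21 genes past limma's adjusted threshold over all genes. The latter count was 155 with array weights, 4 with quantile normalization and 2 with slide column as a block; the cause was not tested. Of the genes at an unadjusted p under 0.05, 51.4% were lower in HAY, and 38.5% with median centring. Calf numbers differ between groups and pair no samples; the slide columns pair 3 arrays of each group, and that block is given above. Signal close to background limits MYH11, DES, CNN1, LMOD1 and SYNPO2, and 7 calves limit every comparison.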

Other observations

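Other cell types of the rumen wall gave mixed values. The 2 tested genes of interstitial cells of Cajal, the pacemaker cells of gut muscle, were ETV1, with a log2 difference of -0.46 (SE 0.41), and THBS4, with one of -0.50 (SE 0.56). Their median of -0.48 moved to -1.03 with HAY calf 9 left out and to -0.06 with HAY calf 13 left out. The mean of these 2 genes had r = 0.78 with the member mean over 7 calves, or 0.82 with the group means removed. THBS4 was highest in HAY calf 9 (2.01), above CON calf 8 (0.99). Of 7 tested genes of nerve and glia, 6 were higher in HAY (median 0.26, 0.15 without HAY calf 10, and 0.09 with normexp). S100B, a glial gene, differed by 0.65 (SE 0.24), STMN2, a neuronal gene, by 0.72 (SE 0.41), or 0.12 with normexp, and NCAM1, a neural adhesion molecule, by -1.08 (SE 0.52). None of these passed limma's adjustment over all genes.

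Of 11 genes of the upper epithelial layers, 4 were lower and 7 higher in HAY (median 0.25). Without CON calf 8, 5 were lower and the median was 0.10, and without HAY calf 9 the median was 0.39. KRT4, a keratin of soft squamous linings, was well above background in all 4 CON calves and in 0 of 3 HAY calves. Its log2 difference as measured was -2.32 (SE 0.37, limma adjusted p = 0.163). With HAY values set to the dimmest signal called well above background on their array, KRT4 was at least 3.63-fold lower in HAY on the group means. That bound holds for the main processing only. With normexp its log2 difference was -0.68, so the size of the KRT4 difference depended on the background correction. KRT78 was higher in all 3 HAY calves, at -0.51, -0.44 and -0.34 in calves 9, 10 and 13, than in CON, at -2.19, -1.11, -1.95 and -1.96 in calves 8, 11, 12 and 14 (log2 difference 1.37, SE 0.26, limma adjusted p = 0.164). IVL, involucrin of the cornified envelope, differed by 0.47 (SE 0.21).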
